A study of Mus musculus with 6 samples.

Results

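The transcription factor NRF2 and the enzymes of the antioxidant defence were examined as a set of 49 mouse genes among 19938 genes measured on each array. Members were taken by symbol, from probe sets with exactly 1 annotated gene. They are the glutathione S-transferases of the alpha, mu, pi and theta classes, the peroxiredoxins, the glutathione peroxidases, and 21 single genes that include Nfe2l2, which encodes NRF2, its inhibitor Keap1, and established NRF2 targets. A total of 54 probe sets matched, and for the 5 genes with several the one with the highest mean over all arrays was used. A further 10 probe sets that name a member together with other genes were left out by this rule.

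RNA came from keratinocytes that laser capture had removed from the tip of the advancing epithelial tongue of skin wounds in mice, 3 days after wounding. The diabetic group had been given a diet rich in fat and fructose for 16 weeks from 8 weeks of age, and the normal group a control diet over the same time. Each group held 3 arrays, titled as biological replicates. No label says that each came from its own mouse, so p-values measure only the spread between these arrays. Diabetes in this model was brought about by diet, and the labels give neither strain nor sex nor blood glucose.

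In unstressed cells KEAP1 holds NRF2 in the cytoplasm and delivers it for degradation. Oxidants and electrophiles modify KEAP1, NRF2 accumulates, pairs with small MAF proteins and binds antioxidant response elements near genes for glutathione synthesis, thioredoxin recycling, quinone and heme breakdown and iron storage. In the epidermis this pathway is known for protecting keratinocytes against reactive oxygen species, which inflammatory cells release into a wound.

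The antioxidant response element was looked for in the RefSeq promoter windows of the members (GRCm38.p6, 250 bases before to 50 bases after a start site) to show which of them carry its core there. The core was searched as TGACNNNGC or TGAGNNNGC on both strands. These letters can overlap the AP-1 motif. Promoter windows were found for 42 of the 49 members, and 17 of these (40.5%) held at least 1 match, against 30.8% of the 27025 genes with a window. Counted by window, the share was 30.9% of 55 windows of members and 27.8% of 32851 windows of all genes. The 4 windows below belong to Srxn1, Sod1, Osgin1 and Me1. Srxn1 was the member whose diabetic values all lay above its normal values. Sod1 and Osgin1 were above the background limit, set out below, on every array. Capitals mark the matches, and sequences run 5′ to 3′ along the gene.
Srxn1 (chr2:152105274-152105573, plus strand): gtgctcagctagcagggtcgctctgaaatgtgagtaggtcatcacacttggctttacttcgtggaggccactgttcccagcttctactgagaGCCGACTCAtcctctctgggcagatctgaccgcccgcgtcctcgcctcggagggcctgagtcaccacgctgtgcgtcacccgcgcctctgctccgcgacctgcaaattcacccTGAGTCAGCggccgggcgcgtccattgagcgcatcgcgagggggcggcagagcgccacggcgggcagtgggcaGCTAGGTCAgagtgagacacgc
Sod1 (chr16:90220512-90220811, plus strand): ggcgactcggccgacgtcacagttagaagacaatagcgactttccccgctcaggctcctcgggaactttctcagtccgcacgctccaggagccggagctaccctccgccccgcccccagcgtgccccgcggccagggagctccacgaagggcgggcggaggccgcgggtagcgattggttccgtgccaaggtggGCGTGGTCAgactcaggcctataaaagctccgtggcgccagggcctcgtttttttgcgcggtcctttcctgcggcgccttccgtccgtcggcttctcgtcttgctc
Osgin1 (chr8:119436897-119437196, plus strand): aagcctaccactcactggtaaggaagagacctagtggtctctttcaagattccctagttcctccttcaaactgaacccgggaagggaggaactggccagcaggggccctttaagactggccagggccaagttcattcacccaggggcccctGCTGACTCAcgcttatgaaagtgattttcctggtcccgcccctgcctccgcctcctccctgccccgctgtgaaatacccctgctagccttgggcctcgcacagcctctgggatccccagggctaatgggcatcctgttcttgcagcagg
Me1 (chr9:86695865-86696164, minus strand): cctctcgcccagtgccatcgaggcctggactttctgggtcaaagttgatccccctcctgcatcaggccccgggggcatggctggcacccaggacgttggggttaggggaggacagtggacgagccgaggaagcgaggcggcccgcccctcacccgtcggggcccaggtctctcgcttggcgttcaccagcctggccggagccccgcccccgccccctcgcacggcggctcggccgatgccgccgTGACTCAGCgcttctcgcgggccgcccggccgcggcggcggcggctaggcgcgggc
Srxn1 held 3 matches, which began 158 and 45 bases before its start site and at base 29 after it. A match began 56 bases before the start site of Sod1, 99 before that of Osgin1 and 6 before that of Me1. The members with a match had a median difference of 0.019 between diabetic and normal signal on the log2 scale (17 members, 10 of them higher), and those without a match a median of -0.042 (25 members, 11 of them higher). A match is a description of the letters in the window and not evidence of binding.

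All values below are log2 probe set signals. Differences are diabetic minus normal, with limma's moderated standard error (SE) and n = 3 arrays per group. A background limit was set on each array from 1190 olfactory and vomeronasal receptor genes, which serve as genes silent in skin, as their 95th percentile, and lay between 1.98 and 2.12. For a gene not above it, the array gives an upper bound and no measured level. The limit does not account for the base composition of probes. Because signals of different probes cannot be set against each other, each gene is compared only with itself and with the limit. On arrays of captured cells, fewer cells of a type and less RNA per cell cannot be told apart.

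No member of the antioxidant set was called different between the groups (0 of 49 at a Benjamini-Hochberg adjusted p under 0.05 in limma, smallest adjusted p 0.887; background 0% of all genes). One member, Ftl1, had an unadjusted p under 0.05, and it was lower in diabetic samples (background 2.92% lower, 2.64% higher and 5.56% in either direction). Of the 49 members 26 were higher and 23 lower in diabetic samples, where 48.7% of all genes were higher. The median difference was 0.013 for the members and -0.0039 for all genes. Differences ran from -0.35 (Ftl1, 0.786-fold) to 0.41 (Fth1, 1.33-fold).

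The precision of these comparisons can be read from the intervals. The 95% confidence interval lay within 2-fold in both directions for all 49 members and within 1.5-fold for 43, a statement about array signal that sets no bound on RNA for genes at background. The median SD between arrays of a group was 0.17 for the members. For 12 of the 49 (24.5%) the difference between groups was larger than the gene's own within-group SD, against 30.7% of all genes. The values of the groups did not overlap for Srxn1, higher in diabetic samples (background 5.02%), and for Gstt4, lower (background 5.66%). The ordinary linear model per gene also gave 0 adjusted calls and 1 member with an unadjusted p under 0.05, which was Srxn1 and not Ftl1.

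**Figure D1:**
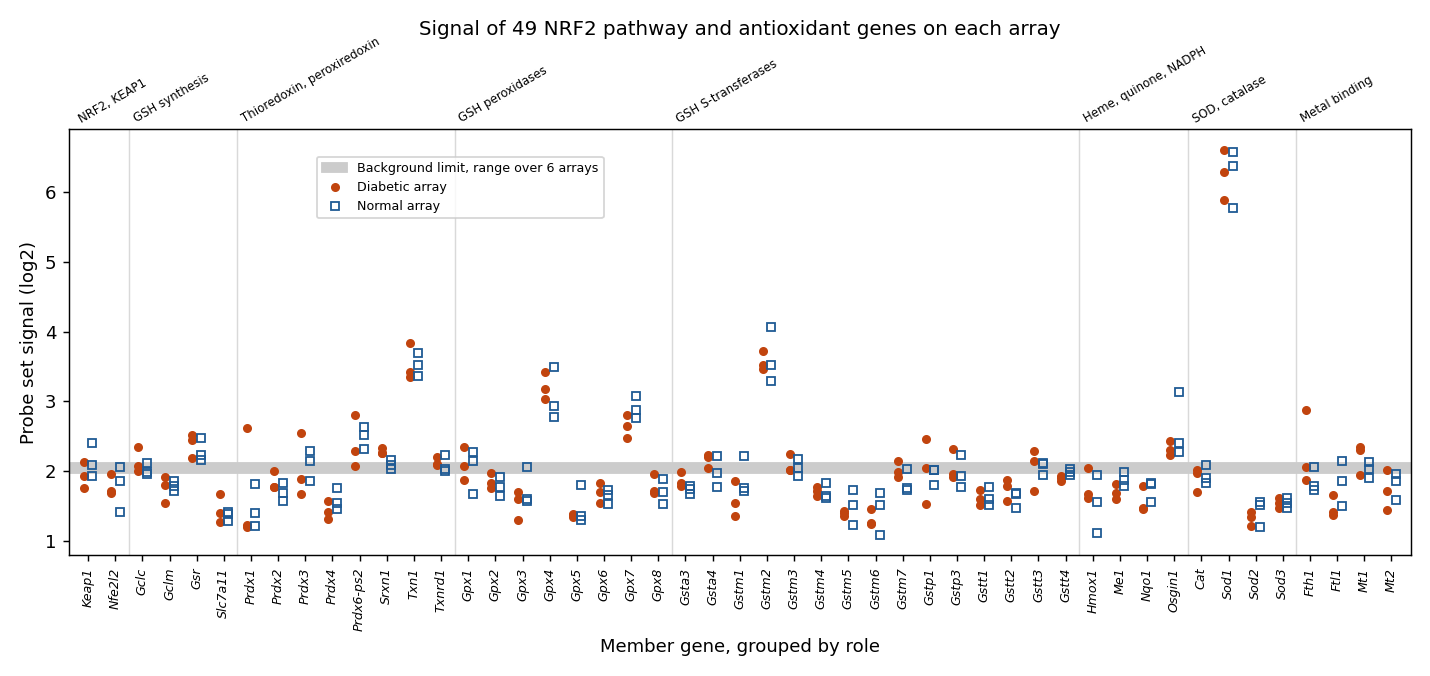
Log2 probe set signal of the 49 member genes (x axis, grouped by role; GSH, glutathione; SOD, superoxide dismutase) on each of 3 diabetic arrays (filled circles) and 3 normal arrays (open squares). The gray band is the range of the background limit over the 6 arrays, 1.98 to 2.12. Sod1 lies between 5.76 and 6.60, and 7 members lie above their limit on all 6 arrays.

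Like the genes on the array as a whole, many members were at background. The members that exceeded the limit on all 6 arrays numbered 7 (14.3%; background 17.3% of all genes) and were Sod1, Txn1, Gstm2, Gpx4, Gpx7, Osgin1 and Gsr. Another 21 (42.9%; background 51.5%) were above it on none. Diabetic arrays had 22, 17 and 14 members above it, normal arrays 15, 13 and 11. Over all genes the diabetic arrays had 35.2%, 36.5% and 29.1% above it, the normal arrays 27.4%, 28.4% and 28.4%, and the limit itself was 1.98 and 2.01 on diabetic replicates 1 and 2 and between 2.11 and 2.12 on the other 4 arrays. The part of this in the members' counts was not tested. For single genes too, the numbers of diabetic and normal arrays above the limit were counted against these unequal limits. Among the 7 members above the limit throughout, 4 were higher and 3 lower, with differences between -0.28 and 0.14.

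The labelled cell type was only weakly marked. Of 23 keratinocyte markers 4 (17.4%) exceeded the limit on every array, against 17.3% of all genes. Another 8 (34.8%) exceeded it on no array, against 51.5% of all genes. E-cadherin (Cdh1), by which the cells were located, was above it on 0 arrays. The summed signal of these markers was 45.2 to 46.4 on the diabetic and 46.7 to 49.3 on the normal arrays. Fibroblast markers summed to 34.2 to 35.5 and 34.2 to 35.2. Of these, 6 of 14 (42.9%) were above the limit on all arrays, among them the collagen genes Col1a1 and Col6a1. Macrophage and monocyte markers summed to 27.2 to 28.0 and 27.1 to 28.3 and neutrophil markers to 23.6 to 24.1 and 24.4 to 26.2, with 0 of 17 and 0 of 14 above the limit on all arrays. Skeletal muscle markers summed to 34.8 to 36.0 and 33.5 to 34.6, with 6 of 15 (40%) above it on all arrays. Endothelial markers summed to 19.0 to 20.3 and 19.0 to 19.5, adipocyte markers to 16.8 to 17.9 and 16.5 to 17.7, and the 3 measured of 10 red blood cell markers to 6.22 to 7.13 and 6.65 to 6.92. On all arrays 1 of 10 endothelial, 1 of 9 adipocyte and 1 of the 3 red blood cell markers exceeded the limit. The muscle sums of the diabetic arrays all lay above those of the normal arrays, and the keratinocyte and neutrophil sums below. These sums add log2 signals, those of markers under the limit included, so they do not measure cell content. The highest keratinocyte and neutrophil sums, 49.3 and 26.2, were both on normal replicate 2, where Krt6b was at 3.28 and S100a9 at 3.08. The part of these cell types in the results below was not tested.

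The regulators of the pathway did not separate the groups. Nfe2l2 was at 1.71, 1.96 and 1.68 in diabetic samples and 1.87, 1.41 and 2.06 in normal samples. It was under the limit on every array, and its difference was 0.0051 (SE 0.16, adjusted p 0.998). Keap1 was at 1.94, 1.77 and 2.13 in diabetic samples and 2.09, 2.40 and 1.93 in normal samples. Only 1 array of each group was above the limit, the groups overlapped, and the difference was -0.20 (SE 0.15), or -0.066 without normal replicate 2 and -0.30 without normal replicate 3.

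Genes of cystine uptake and glutathione supply also overlapped between groups, and 0 of 4 passed. Gsr, the reductase that returns oxidized glutathione to its reduced form, was above the limit on all arrays. It was at 2.19, 2.44 and 2.52 in diabetic samples and 2.23, 2.17 and 2.48 in normal samples. The difference was 0.092 (SE 0.14), within the spread between arrays. The subunits of the rate-limiting enzyme of glutathione synthesis, Gclc (catalytic) and Gclm (modifier), differed by 0.12 (SE 0.13) and -0.035 (SE 0.12). Gclc was above the limit on 2 diabetic arrays and 1 normal array, Gclm on none. Slc7a11, the cystine and glutamate exchanger, was between 1.27 and 1.67 on all arrays, under the limit throughout.

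Srxn1, the sulfiredoxin that repairs overoxidized peroxiredoxins, was the only member whose diabetic values all exceeded its normal values (2.04% of the members, against 5.02% of all genes). It was at 2.26, 2.25 and 2.34 in diabetic samples and 2.09, 2.04 and 2.17 in normal samples. The difference was 0.19 (1.14-fold, SE 0.12, 95% confidence interval -0.062 to 0.44) and did not pass (adjusted p 0.893 in limma). It was above the limit on all 3 diabetic arrays and 1 normal array. The limits were unequal: the normal values under theirs, 2.09 and 2.04, exceed those of diabetic replicates 1 and 2 (1.98 and 2.01). With each array left out in turn the difference stayed between 0.16 and 0.22. The promoter window of Srxn1 with its 3 matches is shown above, and a link between the matches and this difference was not tested.

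Other genes of the thioredoxin system showed no separation. Txn1, cytosolic thioredoxin, was well above the limit at 3.84, 3.35 and 3.42 in diabetic samples and 3.69, 3.52 and 3.36 in normal samples. The difference of 0.013 (SE 0.17) was smaller than the spread between arrays. Txnrd1, the reductase that regenerates it, differed by 0.046 (SE 0.12). The peroxiredoxins, which remove peroxides with electrons from thioredoxin, were represented by Prdx1 to Prdx4 and the pseudogene Prdx6-ps2, and differed by -0.15 to 0.21. The mitochondrial Prdx3 was at 2.55, 1.90 and 1.68 in diabetic samples and 2.28, 2.14 and 1.86 in normal samples. The cytosolic Prdx2 was above the limit on 1 diabetic array, and Prdx4, of the endoplasmic reticulum, on none. The second probe set of Prdx2, under the limit on all arrays, differed by -0.16, against 0.15 for the one used. Prdx1 was picked out after its values were seen, because diabetic replicate 1 stood at 2.62 and the other diabetic arrays at 1.20 and 1.23, with normal arrays at 1.81, 1.40 and 1.21. Its second probe set was at 1.24 on diabetic replicate 1, so the high value rests on 1 array and 1 probe set. That second probe set differed by -0.089, against 0.21 for the one used. Prdx1 and Fth1 were the 2 members (4.08%) whose range over the 6 arrays exceeded 1, against 1.82% of all genes.

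Glutathione peroxidases gave 5 members higher and 3 lower, and 0 of 8 passed. Gpx4, the enzyme that reduces lipid hydroperoxides in membranes and protects against ferroptosis, was at 3.41, 3.04 and 3.18 in diabetic samples and 2.77, 3.50 and 2.94 in normal samples. The groups overlapped, and the difference was 0.14 (SE 0.19). Its second probe set gave 0.15 (SE 0.20) and ran in parallel, with normal replicate 2 high and normal replicate 1 low on both. Without normal replicate 2 the difference was 0.36, and without normal replicate 1 it was -0.0077. Gpx7, a peroxidase of the endoplasmic reticulum, was at 2.48, 2.65 and 2.81 in diabetic samples and 2.76, 2.88 and 3.08 in normal samples. Only the highest diabetic value reached into the normal range, and the difference was -0.26 (SE 0.15, adjusted p 0.893). Gpx3, the secreted plasma enzyme, differed by -0.20 (SE 0.15) under the limit on all arrays, and by -0.044 without normal replicate 3. The other 5 peroxidases (Gpx1, Gpx2, Gpx5, Gpx6 and Gpx8) differed by -0.12 to 0.084. Of these, Gpx1, the abundant cytosolic enzyme, was above the limit on 2 arrays of each group, and the others on none.

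**Figure D2:**
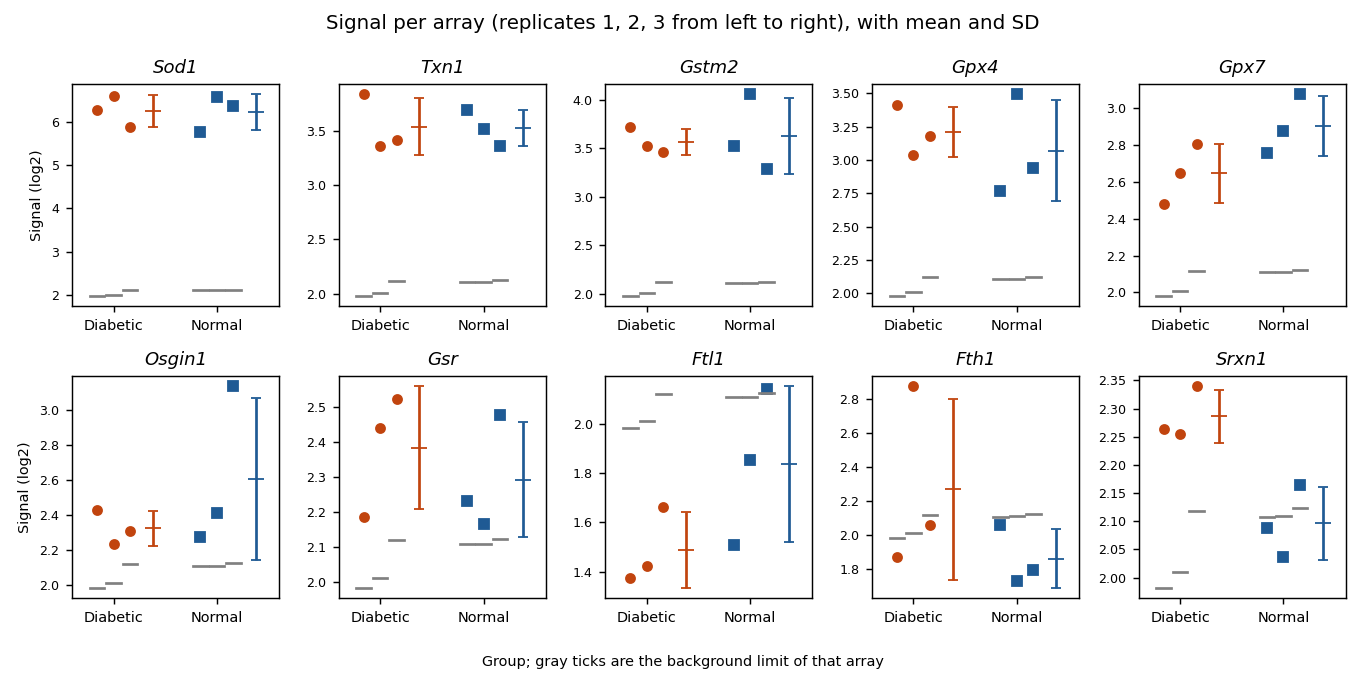
Log2 signal of 10 members on each array, in the order of replicates 1, 2 and 3, with group mean and SD beside the points. Axes differ between panels and do not start at 0, and gray ticks are the background limit of the array. Diabetic and normal points overlap in every panel except Srxn1, where diabetic arrays lie between 2.25 and 2.34 and normal arrays between 2.04 and 2.17.

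The glutathione S-transferases, which conjugate glutathione to electrophiles, split 8 higher and 7 lower, and 0 of 15 passed. Gstm2 was at 3.72, 3.53 and 3.46 in diabetic samples and 3.53, 4.06 and 3.29 in normal samples, the only one of the 15 above the limit throughout. The normal arrays enclosed the diabetic ones, and the difference was -0.058 (SE 0.20), or 0.16 without normal replicate 2. Gstm1 was at 1.36, 1.86 and 1.54 against 1.75, 2.21 and 1.72, above the limit on 1 normal array. Its difference of -0.31 (0.808-fold, SE 0.16, adjusted p 0.893) had the second smallest unadjusted p among the members (0.0841). It was -0.15 without normal replicate 2 and -0.45 without diabetic replicate 2. Gstm7 differed by 0.18 (SE 0.13). Gsta4, which acts on lipid peroxidation products, was at 2.05, 2.24 and 2.20 in diabetic samples and 1.77, 2.21 and 1.97 in normal samples. It was above the limit on 3 diabetic arrays and 1 normal array. The 2.05 of diabetic replicate 1 passed that array's limit of 1.98 but not the 2.11 to 2.12 of the normal arrays. Gstp1, a major transferase of epithelia, ranged more widely within the diabetic group (2.05, 1.54 and 2.46) than within the normal group (1.80, 2.02 and 2.02). Both alpha class members and both pi class members were higher, by 0.069 to 0.18, and 3 of 4 theta class members were lower. Gstt4, named for its lack of overlap, was lower by a small margin (1.87 to 1.94 against 1.94 to 2.04, difference -0.085, SE 0.11), under the limit on all arrays. The mu class genes are close relatives, so probes may share signal among them, which was not tested. For Gstm3 the probe set used, above the limit on 4 arrays, differed by 0.047. The other, above it on 1 array only, differed by 0.39 (SE 0.25).

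Of the inducible enzymes that serve as readouts of NRF2, 0 of 4 passed. Hmox1, heme oxygenase, was at 1.61, 2.05 and 1.68 in diabetic samples and 1.12, 1.56 and 1.95 in normal samples. Only 1 diabetic array was above the limit, and the difference of 0.24 (SE 0.19) was 0.029 without normal replicate 1. Nqo1, the quinone reductase, was under the limit throughout, with a difference of -0.17 (SE 0.13). Me1, which makes NADPH, was likewise under it, with a difference of -0.18 (SE 0.11), and its other probe set differed by 0.076. Osgin1, an oxidative stress induced growth inhibitor, was above the limit on all arrays at 2.43, 2.23 and 2.31 in diabetic samples and 2.27, 2.41 and 3.13 in normal samples. Its difference of -0.28 (SE 0.20, adjusted p 0.911) rested on normal replicate 3, without which it was -0.018.

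Superoxide dismutases and catalase, which dispose of superoxide and hydrogen peroxide, held the member with the clearest signal. Sod1, the cytosolic copper and zinc enzyme, was at 6.29, 6.60 and 5.88 in diabetic samples and 5.76, 6.57 and 6.37 in normal samples. Group means were 6.25 ± 0.36 (SD) and 6.23 ± 0.42, and the difference was 0.019 (SE 0.25, 95% confidence interval -0.52 to 0.56). Differences of more than 1.5-fold in Sod1 signal in either direction therefore lay outside the interval, within these arrays. Its sign turned under quantile normalization (-0.059) and with array weights (-0.0065). The mitochondrial Sod2 differed by -0.097 (SE 0.11) and the extracellular Sod3 by -6.3e-05 (SE 0.10), both under the limit on all arrays, as was catalase (Cat, -0.042, SE 0.13).

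Ferritin, which stores iron and is induced by NRF2, gave the extremes of the set in opposite directions. The probe set used for Ftl1, the light chain gene, was at 1.37, 1.42 and 1.66 in diabetic samples. In normal samples it was at 1.51, 1.85 and 2.14. The place in the genome that this probe set matches was not checked. It was above the limit on 1 normal array only. Its difference was -0.35 (SE 0.15, 95% confidence interval -0.69 to -0.010), with an unadjusted p of 0.0445 and an adjusted p of 0.887 in limma. Without normal replicate 3, the highest array, the difference was -0.19. The unadjusted p was also under 0.05 without diabetic replicate 3 or normal replicate 1, but not without any of the other 4 arrays. The 4 probe sets annotated to Ftl1 jointly with the microRNA genes Mir692-2 and Mir692-3, from which no gene is named here, differed by -0.18 to 0.20. The one above the limit on all 6 arrays was higher in diabetic samples (2.84, 2.75 and 2.68 against 2.52, 2.62 and 2.51). The one above it on 5 arrays was lower without overlap (-0.18), and the others differed by -0.074 and -0.011. Fth1, the heavy chain gene, was at 1.87, 2.88 and 2.06 in diabetic samples and 2.06, 1.73 and 1.79 in normal samples. Diabetic replicate 2 alone was above the limit, and the difference of 0.41 (SE 0.22, adjusted p 0.893) was 0.10 without it.

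Of the metallothioneins, which bind zinc and copper, 0 of 2 passed. Mt1 was at 2.35, 2.30 and 1.94 in diabetic samples and 2.13, 2.03 and 1.90 in normal samples, and the difference was 0.17 (SE 0.14). Mt2 was at 2.02, 1.44 and 1.72 against 1.85, 1.59 and 1.96, a difference of -0.073 (SE 0.16). The groups overlapped for both genes, and the differences had opposite signs.

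**Figure D3:**
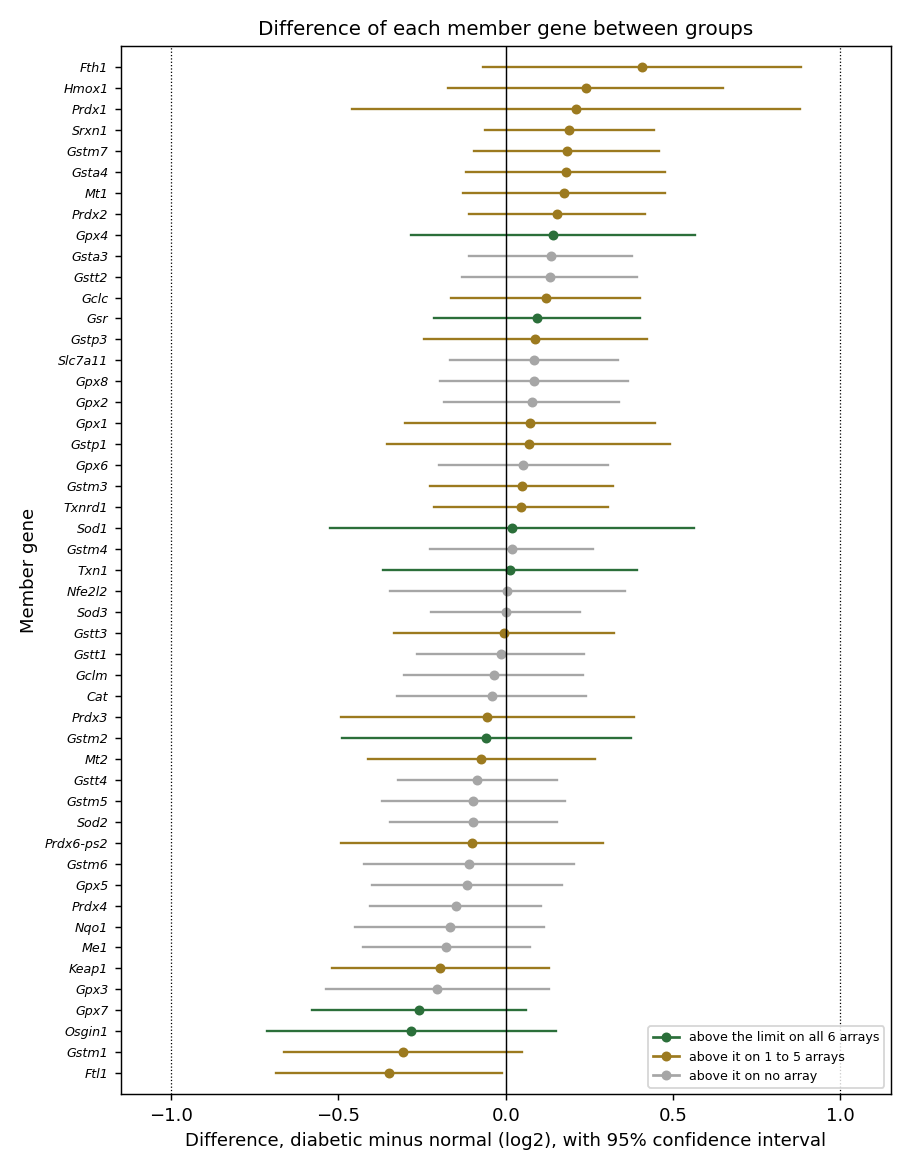
Difference in log2 signal, diabetic minus normal, for each member gene with its 95% confidence interval, ordered by the difference. Dotted lines mark 2-fold, and colour gives the number of arrays on which the gene was above its background limit. Differences run from -0.35 (Ftl1) to 0.41 (Fth1), and all 49 intervals lie inside the dotted lines.

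The wider pathway was followed in 4 lists of other genes, 90 of which were measured. In limma 0 of them passed the adjusted threshold, and 1 (1.11%) had an unadjusted p under 0.05, against 5.56% of all genes. The groups did not overlap for 5 genes higher in diabetic samples (5.56%) and 3 lower (3.33%), against 5.02% and 5.66% of all genes. Among the genes named here these were Blvra, Sesn2 and Rac2, higher, and Abcc2 and Chac1, lower. Of 15 partners and regulators of NRF2, 9 were higher and 6 lower (median 0.016). Nfe2, a relative of NRF2 in blood cells, differed by 0.22, the kinase gene Gsk3b by -0.15, Nfe2l1 by -0.17 and Rbx1, a subunit of the ubiquitin ligase that works with KEAP1, by -0.21. Gsk3b was under the limit on all arrays, and Nfe2l1 and Rbx1 were above it on all. Nfe2 was above it on 3 diabetic and 2 normal arrays. Of 29 other genes of drug metabolism, NADPH and iron handling, 15 were higher and 14 lower (median 0.018). The biliverdin reductase gene Blvra differed by 0.21, the export pump gene Abcc2 by -0.18, the pentose phosphate gene Pgd by 0.27 and the microsomal transferase gene Mgst1 by 0.16. Abcc2 and Mgst1 were under the limit on all arrays, so their levels were not measured. Blvra and Pgd were each above it on 3 diabetic and 2 normal arrays.

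Of 27 other genes of glutathione, thioredoxin and metal binding, 16 were higher and 11 lower (median 0.018). Sesn2, a stress-induced sestrin, was at 2.16, 2.01 and 1.92 in diabetic samples and 1.75, 1.71 and 1.84 in normal samples. It was above the limit on 2 diabetic and 0 normal arrays, on diabetic replicate 2 only just (2.012 against 2.009). The difference was 0.26 (SE 0.12, unadjusted p 0.0447, adjusted p 0.887 in limma). Its relative Sesn1 differed by 0.35, but its groups overlapped and it was above the limit on 1 diabetic array only. The third sestrin, Sesn3, differed by -0.097. Chac1, which degrades glutathione, differed by -0.24 with all arrays above the limit. The mitochondrial thioredoxin reductase gene Txnrd2 differed by 0.20 and was above the limit on 1 diabetic array only. Of 19 producers of superoxide and hydrogen peroxide, 10 were higher and 9 lower (median 0.0093). Rac2, a switch of the phagocyte oxidase, differed by 0.23, the dual oxidase genes Duox2 and Duox1 by 0.18 and -0.15, and the oxidase gene Nox4 by -0.15. Duox2 and Nox4 were under the limit on all arrays. Rac2 was above it on 3 diabetic and 2 normal arrays, and Duox1 on 1 diabetic and 2 normal arrays.

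**Figure D4:**
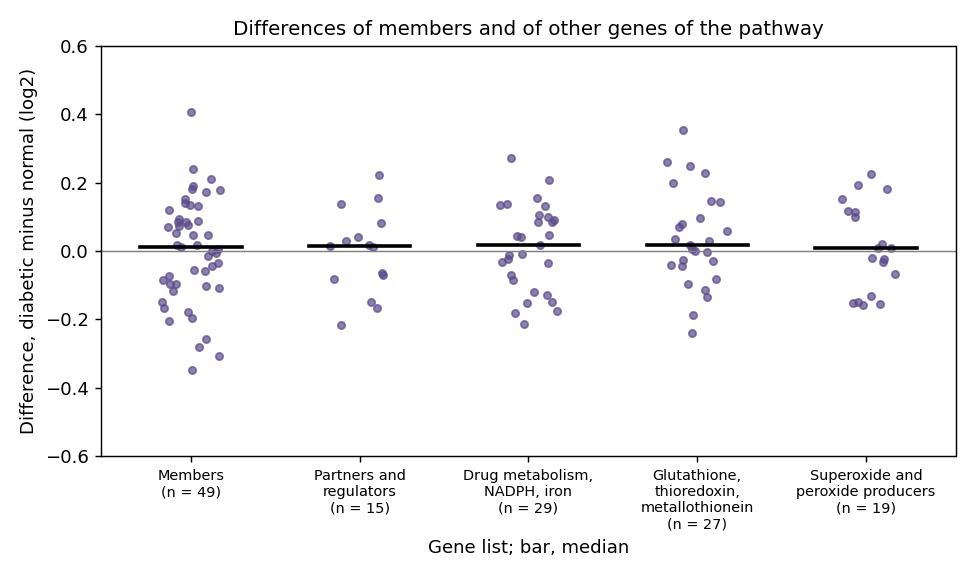
Difference in log2 signal, diabetic minus normal, for the 49 members and for 4 lists of other genes of the pathway (points, 1 gene each; horizontal positions within a list are random). Black bars are medians, which lie between 0.0093 and 0.018 for every list and the members.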

How the data were processed

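Per the submitters' processing notes, Partek (no version given) was used, and the deposited values are log2 probe set signals for 35556 probe sets on 6 arrays. The log base was read from the values, while background correction and normalization methods are, in the sources used here, not given, so no further scaling was applied. Array medians over genes lay between 1.79 and 1.83.

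Single-gene probe sets (21789) were named from the array annotation and updated by gene ID to GRCm38.p6 symbols (21698 matched). The 1621 probe sets naming several genes and 12146 unlisted ones were left out. Groups came from the sample titles. The comparison of the groups used limma 3.58.1 (lmFit, eBayes with intensity trend; R 4.3.3), with Benjamini-Hochberg adjustment over all 19938 genes. The fit was tested on simulated data.

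Members and lists were chosen with earlier results of these data known. Named were the 21 single genes, other members above the limit on all arrays, the 10 smallest p, and up to 4 genes per pathway list. Sesn3 was added to these after its value was seen. Other members given with values (Prdx1 to Prdx4, Gpx1, Gsta4, Gstm3, Gstp1 and Gstt4) were picked after their values were seen and are not among the 27 followed under the alternatives. Pseudogene removal was an alternative added after seeing the data. Others covered scaling, variance models, array weights, filters, probe sets, a replicate block and each array left out. Replicate numbers did not pair the samples (correlations of deviations -0.018, 0.0078 and 0.014).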

Additional observations from a re-analysis of the deposited data

How the results depend on the processing

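In limma, 0 members passed the adjusted threshold under every alternative run, and the members' median difference stayed between -0.0020 and 0.047. With each array left out in turn, members with an unadjusted p under 0.05 numbered 0 to 2 and pathway genes 1 to 5. The members with an unadjusted p under 0.05 numbered 0 after quantile normalization, without the intensity trend, among genes above the median level, among genes above the limit on 3 arrays and with a fold of at least 1.5 added. Pathway genes numbered 2 in the ordinary linear model and 0 among genes above the limit on 3 arrays. With a replicate block the counts were 2 for the members (Ftl1 and Gstm1) and 0 for the pathway genes, and the block made no adjusted call. Among the 27 named members, the sign turned for Sod1 after quantile normalization (-0.059) and with array weights (-0.0065), for Sod3 after quantile normalization (0.020) and centring (0.0032), and for Txn1 after quantile normalization (-0.045). Leaving out 1 array turned the sign for 10 genes, whose differences then ran -0.12 to 0.067 (Gclm), -0.026 to 0.17 (Slc7a11), -0.0077 to 0.36 (Gpx4), -0.23 to 0.16 (Gstm2), -0.22 to 0.071 (Mt2), -0.18 to 0.15 (Nfe2l2), -0.10 to 0.057 (Cat), -0.22 to 0.21 (Sod1), -0.038 to 0.035 (Sod3) and -0.14 to 0.10 (Txn1). The cause was not tested. Low signal limits what 42 of the 49 members can show, 21 above the limit on no array and 21 on only some.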
